A study of Mus musculus with 11 samples.

Results

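The genes described here are 10 axon injury effector genes: *Sprr1a*, *Gal*, *Npy*, *Gpr151*, *Csf1*, *Cckbr*, *Gadd45a*, *Ecel1*, *Flrt3* and *Nts*. They were chosen by name from the 36670 genes of the deposited table, with their FPKM and counts in these libraries already known, so their levels are a description and the tests below give no independent support. All 10 had a row, and all 10 passed the filter, a mean FPKM of 0.5 or more, that left 15087 genes to test. FPKM is a level per kilobase of transcript, scaled to the size of each library.

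RNA-Seq was performed on poly(A) RNA from dorsal root ganglia (DRGs), where sensory neurons have their cell bodies, each wrapped by satellite glial cells (SGCs). The 11 libraries came from untreated WT mice (n = 3), WT mice given paclitaxel (PTX) 4 weeks earlier (n = 3), untreated mice lacking *Gpr37l1* (KO, n = 3) and KO mice given PTX 4 weeks earlier (n = 2). PTX is used in chemotherapy and leaves many patients with neuropathic pain. The stated subject of the series was the role of GPR37L1, a G protein-coupled receptor of SGCs, in DRGs under pain. Per the study's methods, the KO strain B6;129S5-Gpr37l1tm1Lex/Mmucd and its littermates were kept on a C57BL/6 background. The labels call the untreated mice control, and the paper calls those of WT naive. The age of the sequenced mice and their PTX dose were not given in the sources used here. In each group, replicate 3 was labelled female and the other replicates male, so the labelled sex and the number 3 cannot be told apart. For KO PTX mice the numbers 2 and 3 of the descriptions were used, where the titles have 1 and 2.

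After a peripheral nerve is cut or crushed, sensory neurons switch on a shared set of genes, led by the transcription factor *Atf3*, that accompanies axon regrowth and signalling to glia and immune cells. The set includes peptides that the neurons release, receptors, an adhesion molecule, a membrane protease and stress proteins. In uninjured ganglia most of these genes are known to be low, and some of them serve as marks of an injured neuron.

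Libraries held 52735648 to 80348732 estimated counts. *Gpr37l1* was measured at 14.56 to 35.70 FPKM in the 6 WT libraries and at 0.21 to 1.15 in the 5 KO libraries, and was lower in KO controls than in WT controls by edgeR's quasi-likelihood test (log2 fold change −7.03, adjusted p = 4.53e-05). Sensory neuron markers were abundant in all libraries (summed FPKM of 9 markers, 3689 to 4588). Their sum was highest in WT controls 1 and 2, as were *Tubb3* and *Prph*. In contrast, *Snap25* (130.78 and 159.81 FPKM) and *Pou4f1* (34.96 and 36.09) were lowest in WT controls 1 and 2. The 7 mice labelled male had the Y-linked *Ddx3y* at 5.62 to 9.84 FPKM, and those labelled female had it at 0.02 to 0.16. *Xist*, the X-inactivation RNA, was at 8.12 to 9.13 FPKM in 3 of the 4 libraries labelled female, but at 0.05 in KO control 3, which was labelled female and had neither mark. Comparisons of labelled sexes are therefore also given without KO control 3. Markers of spinal cord were highest in KO PTX 3 (summed FPKM of 14 markers, 24.4, against 2.07 to 8.09 elsewhere). Markers of skeletal muscle ranged from 2.73 in WT PTX 3 to 497 in KO control 2 (summed FPKM of 7 markers). DRGs were sequenced in bulk, so fewer cells of a type and less RNA per cell cannot be told apart.

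Promoter sequences were shown for 4 genes because 2 of them held a match to the motif of AP-1, the dimers of JUN, FOS and ATF proteins. The RefSeq promoters of GRCm38.p6, from 250 bases before to 50 after the start site, were searched for the AP-1 motif TGANTCA and the CRE motif TGACGTCA, where N is any base. Both motifs read the same on both strands, and matches to them cannot share bases. A promoter was given for 9 of the 10 genes, all but *Gpr151*. Among 32544 different promoters, 7.79% held TGANTCA, 1.8% held TGACGTCA and 9.53% held either. *Sprr1a* held TGANTCA at 2 places, beginning at −146 and −116 from the start site, and *Nts* held it at −207. No match to either motif lay in the window of the other 7 genes. A match is a description of letters and was not tested as a site. The stretches below run from 250 to 81 bases before the start site, 5′ to 3′ on the strand of the gene, with the AP-1 motif in capitals. They lie at chr3:92485962-92486131 (minus strand, *Sprr1a*), chr10:102490499-102490668 (minus strand, *Nts*), chr19:3414625-3414794 (minus strand, *Gal*) and chr6:49822460-49822629 (plus strand, *Npy*).
Sprr1a: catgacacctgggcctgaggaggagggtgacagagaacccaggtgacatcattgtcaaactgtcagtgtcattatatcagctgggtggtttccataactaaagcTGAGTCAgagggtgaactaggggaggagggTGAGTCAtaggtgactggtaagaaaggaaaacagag
Nts: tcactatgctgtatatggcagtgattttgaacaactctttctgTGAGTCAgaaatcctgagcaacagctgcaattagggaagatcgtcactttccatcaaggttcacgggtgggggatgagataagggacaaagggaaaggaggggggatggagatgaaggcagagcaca
Gal: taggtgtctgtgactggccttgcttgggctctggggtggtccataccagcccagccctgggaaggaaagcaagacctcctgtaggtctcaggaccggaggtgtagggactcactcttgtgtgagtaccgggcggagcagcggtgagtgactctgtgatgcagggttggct
Npy: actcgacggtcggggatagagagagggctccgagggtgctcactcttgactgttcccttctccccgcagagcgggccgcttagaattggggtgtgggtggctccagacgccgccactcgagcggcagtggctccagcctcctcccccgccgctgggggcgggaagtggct

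The peptides and the cytokine came first. *Gal* (ENSMUSG00000024907, chromosome 19, 3409915 to 3414544, minus strand, up to 6 exons per transcript in GENCODE M21) encodes galanin, a neuropeptide. Its FPKM was 49.54, 130.3 and 24.08 in WT controls 1, 2 and 3, and 21.69, 35.07 and 14.91 in WT PTX mice 1, 2 and 3. In KO controls it was 24.67, 42.06 and 20.49, and in KO PTX mice 2 and 3 it was 29.0 and 17.99. WT control 2 was 3.1 times the highest of the 9 libraries other than WT controls 1 and 2, and the range of WT controls overlapped that of every other group. *Gal* was the most abundant of the 10 genes in the libraries labelled female, at 14.9 to 24.1 FPKM. Galanin transcript was thus plentiful in every library, also in those where *Npy* and *Sprr1a* were near 0.

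*Npy* (ENSMUSG00000029819, chromosome 6, 49822710 to 49829507, plus strand, 4 exons) encodes neuropeptide Y, which injured large sensory neurons are known to produce. Its FPKM was 16.43, 20.08 and 0.19 in WT controls and 0.54, 3.24 and 0.40 in WT PTX mice. It was 4.95, 5.44 and 0.00 in KO controls, where replicate 3 had 0 counts, and 3.83 and 2.03 in KO PTX mice. WT controls 1 and 2 were 3.02 and 3.69 times the highest of the other 9 libraries, while WT control 3 had 8 counts. Among the libraries labelled female, KO PTX 3 was the highest with 71 counts, and it was also the library with the highest spinal cord markers. Spinal cord holds *Npy* neurons, and the part of spinal cord RNA in this value was not tested.

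*Nts* (ENSMUSG00000019890, chromosome 10, 102481756 to 102490486, minus strand, 4 exons) encodes neurotensin. Its FPKM was 41.96, 55.11 and 6.16 in WT controls and 11.67, 18.49 and 6.87 in WT PTX mice. It was 30.94, 40.92 and 5.74 in KO controls and 21.96 and 7.37 in KO PTX mice. The libraries fell into 4 low ones, all labelled female, between 5.74 and 7.37 FPKM, and 7 higher ones, all labelled male, from 11.67 upward. KO control 2 lay just below WT control 1.

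*Csf1* (ENSMUSG00000014599, chromosome 3, 107741048 to 107760469, minus strand, up to 9 exons) encodes colony-stimulating factor 1, a cytokine through which injured sensory neurons act on microglia and macrophages. Its FPKM was 6.09, 11.32 and 3.51 in WT controls and 3.62, 4.39 and 2.94 in WT PTX mice. It was 3.65, 5.20 and 3.31 in KO controls and 4.42 and 4.05 in KO PTX mice. Apart from WT controls 1 and 2, the libraries lay between 2.94 and 5.20 FPKM. The 6 macrophage markers had a summed FPKM of 9.95 and 11.8 in WT controls 1 and 2 and of 7.18 to 10.1 in the other libraries. Their part in *Csf1* was not tested.

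The receptors followed. *Gpr151* (ENSMUSG00000042816, chromosome 18, 42577881 to 42579652, minus strand, 1 exon) encodes an orphan G protein-coupled receptor that injured sensory neurons express. Its FPKM was 5.61, 13.93 and 0.62 in WT controls and 0.96, 1.54 and 0.71 in WT PTX mice. It was 1.32, 2.57 and 0.66 in KO controls and 1.59 and 0.68 in KO PTX mice. WT control 2 was 5.42 times the highest of the 9 libraries outside WT controls 1 and 2, the most among the 10 genes. The 4 libraries labelled female lay within 0.62 to 0.71 FPKM, with 74 to 98 counts each.

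*Cckbr* (ENSMUSG00000030898, chromosome 7, 105425731 to 105470898, plus strand, up to 5 exons) encodes the cholecystokinin B receptor. Its FPKM was 2.63, 3.95 and 0.07 in WT controls and 0.17, 0.92 and 0.11 in WT PTX mice. It was 1.18, 2.21 and 0.03 in KO controls and 0.98 and 0.29 in KO PTX mice. The libraries labelled female had 8 to 51 counts and WT PTX 1 had 42, so the level of *Cckbr* in these 5 libraries rested on few reads. WT PTX 1 was the only library labelled male that lay below a library labelled female, KO PTX 3.

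The membrane proteins were *Ecel1* and *Flrt3*. *Ecel1* (ENSMUSG00000026247, chromosome 1, 87147655 to 87156521, minus strand, up to 18 exons) encodes a neuronal membrane metalloprotease of the endothelin-converting enzyme family that is induced after nerve injury. Its FPKM was 6.31, 10.33 and 0.27 in WT controls and 0.49, 1.27 and 0.26 in WT PTX mice. It was 1.98, 4.38 and 0.21 in KO controls and 2.16 and 0.60 in KO PTX mice. The order of the libraries was close to that of *Cckbr* (Spearman's rho = 0.98, Pearson's r = 0.99 over 11 libraries on log2(FPKM + 1)).

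*Flrt3* (ENSMUSG00000051379, chromosome 2, 140650914 to 140671469, minus strand, up to 4 exons) encodes a leucine-rich repeat adhesion protein. The gene lies inside *Macrod2* on the opposite strand, which was at 3.71 to 5.76 FPKM, and the sources used here do not state whether counting used strand, so reads of both cannot be told apart with certainty. Its FPKM was 5.88, 10.61 and 3.83 in WT controls and 4.33, 5.54 and 3.73 in WT PTX mice. It was 5.14, 5.92 and 3.93 in KO controls and 5.06 and 4.05 in KO PTX mice. It was the only one of the 10 genes for which WT control 1 lay below a library other than WT control 2, namely KO control 2. Its range was the narrowest of the 10, with the highest library at 2.84 times the lowest.

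The stress genes were *Gadd45a* and *Sprr1a*. *Gadd45a* (ENSMUSG00000036390, chromosome 6, 67035096 to 67037406, minus strand, up to 4 exons) encodes a growth arrest and DNA damage-inducible protein. These coordinates are those of the deposited data, and GENCODE M21 gives others for *Gadd45a*. In GENCODE M21 *Gadd45a* overlaps *E230016M11Rik* on the opposite strand, which was at 0.63 to 1.16 FPKM. Its FPKM was 14.09, 20.74 and 7.50 in WT controls and 7.36, 8.04 and 7.93 in WT PTX mice. It was 8.32, 10.54 and 7.58 in KO controls and 7.29 and 6.47 in KO PTX mice. Outside WT controls 1 and 2 the libraries lay between 6.47 and 10.54 FPKM, and WT PTX was the only group in which a library labelled male lay below the one labelled female.

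*Sprr1a* (ENSMUSG00000050359, chromosome 3, 92483952 to 92485895, minus strand, 2 exons) encodes a small proline-rich protein, a building block of the cornified envelope of skin that injured sensory neurons also make. It had the widest range of the 10 genes. Its FPKM was 57.28, 117.59 and 0.23 in WT controls and 1.38, 14.94 and 0.21 in WT PTX mice. It was 7.67, 27.57 and 0.09 in KO controls and 9.32 and 0.24 in KO PTX mice. Every library labelled male lay above every library labelled female, at 96 to 7665 counts against 6 to 14 counts. Markers of skin were near 0, as the 6 keratinocyte markers of the table had a summed FPKM of 0.55 to 1.85 and *Ivl*, involucrin, was listed at 0 in each of the 11 libraries. Its relative *Sprr1b* was at 0.14 FPKM in WT controls 1 and 2 and listed at 0 in the other 9 libraries.

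**Figure D1:**
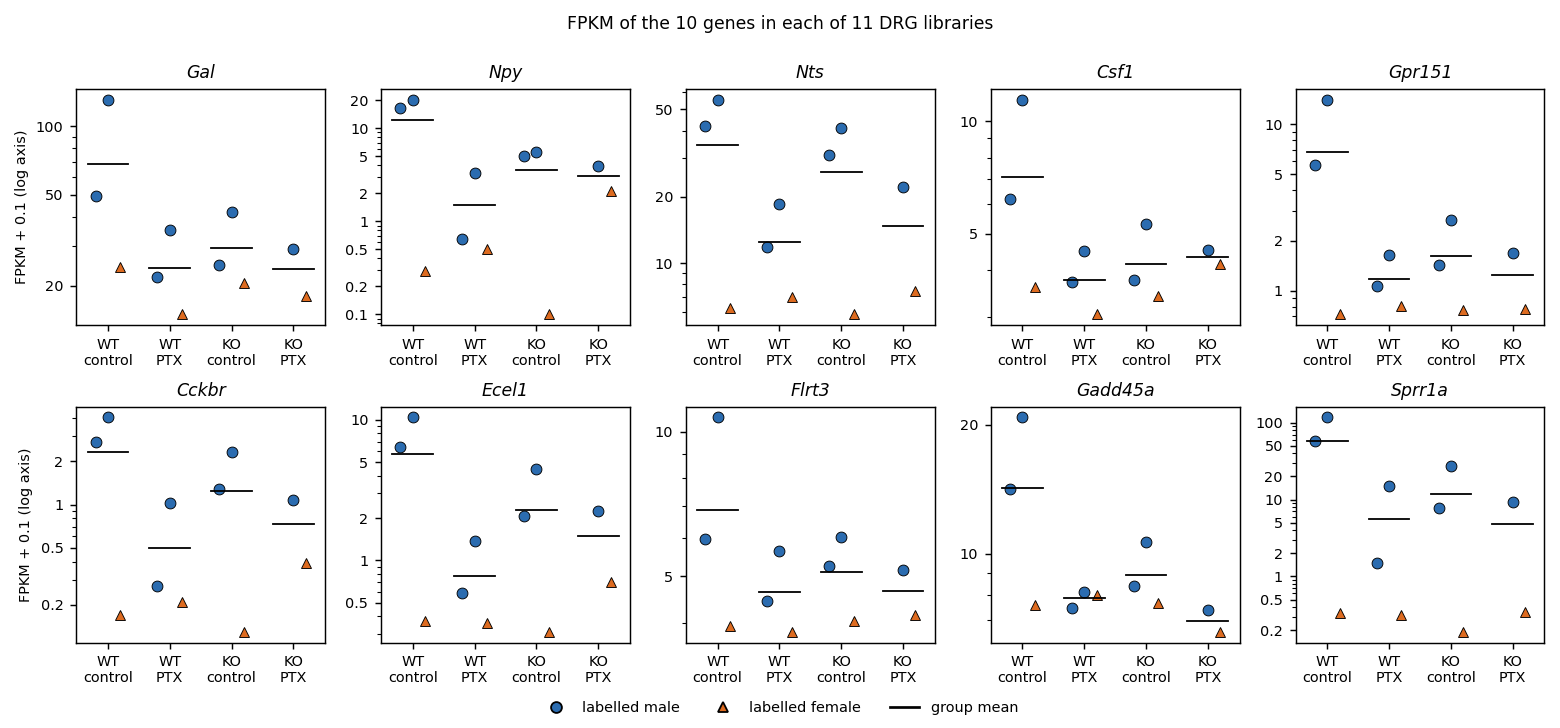
FPKM + 0.1 on a log axis for each of the 10 genes, 1 point per library, in the 4 groups. Circles are mice labelled male, triangles mice labelled female and bars group means. The first 2 points of WT controls stood highest for 9 genes, and the triangles lay at the bottom of each group except for *Gadd45a* in WT PTX mice.

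The same libraries were high for nearly all 10 genes. WT control 2 was the highest library for 10 of 10 genes, WT control 1 the next for 9 and KO control 2 the next for 9. Both WT controls 1 and 2 lay above the other 9 libraries for 9 of 10 genes, all but *Flrt3*, against 6.77% of the 15087 tested genes. The lowest library was KO control 3 for 5 genes, WT PTX 3 for 3, WT control 3 for 1 and KO PTX 3 for 1, all labelled female. All 7 libraries labelled male lay above all 4 labelled female for 4 genes, *Sprr1a*, *Gpr151*, *Flrt3* and *Nts*, against 0.583% of tested genes, and for the same 4 genes, against 1.39%, without KO control 3. Within each of the 4 groups the male-labelled libraries lay above the female-labelled one for 9 genes, all but *Gadd45a*, against 2.28%, and without KO controls for the same 9 genes, against 8.36%. Since the 10 genes were chosen with these levels known, the counts describe them and nothing was read from the difference. Over the 45 pairs of genes, Pearson's r on log2(FPKM + 1) over 11 libraries ranged from 0.76 (*Gadd45a* and *Nts*) to 0.99 (*Cckbr* and *Ecel1*), with a median of 0.92. Without WT controls 1 and 2 the median was 0.88 over 9 libraries, and the lowest was 0.45 for *Npy* and *Gadd45a*. These libraries differ in sex, group and tissue carried along, and the points share these.

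Group means followed the high libraries. WT controls had the highest mean for all 10 genes and KO controls the second highest for 9, with KO PTX second for *Csf1*. For *Sprr1a* the means were 58.4 ± 58.7 FPKM in WT controls, 5.51 ± 8.19 in WT PTX mice and 11.8 ± 14.2 in KO controls (SD, n = 3 each), and 4.78 ± 6.42 in KO PTX mice (n = 2). For *Gal* they were 68.0 ± 55.5, 23.9 ± 10.3, 29.1 ± 11.4 and 23.5 ± 7.79 FPKM in the same order. Neighbouring groups in the order differed by no more than 1 SD of the wider group in each case except for *Gadd45a*, where the third, WT PTX (7.78 ± 0.37), and the fourth, KO PTX (6.88 ± 0.58), were further apart. The order of the groups was the same for 9 genes in TMM-scaled CPM, counts scaled for library size and by TMM factors but not for length. For *Flrt3* WT PTX and KO PTX exchanged places.

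PTX was compared with control in WT mice. All 10 genes had a lower level in WT PTX mice, with log2 fold changes from −3.10 (SE 0.95) for *Sprr1a* to −0.53 (SE 0.23) for *Flrt3* and a median of −1.64, against −0.0058 over all tested genes. *Npy* differed by −2.48 (SE 1.15), *Ecel1* by −2.44 (SE 0.70) and *Gpr151* by −2.19 (SE 0.64). *Cckbr* differed by −1.89 (SE 0.88) and *Gal* by −1.40 (SE 0.39). *Nts* differed by −1.09 (SE 0.37), *Csf1* by −0.87 (SE 0.27) and *Gadd45a* by −0.79 (SE 0.25). None passed the threshold in edgeR's quasi-likelihood test (adjusted p = 0.238 to 0.38), where 0.00663% of tested genes were called, and 8 of 10 had an unadjusted p under 0.05 against 6.87% of tested genes in that direction. By DESeq2, 1 of the 10 genes was called lower, *Gadd45a* (adjusted p = 0.0367), against 1.1% of tested genes. For 0 of 10 genes did all 3 WT PTX libraries lie below all 3 WT controls, against 7.37% of tested genes, since WT control 3 lay below the highest WT PTX library for each.

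The difference in WT mice was also fitted without WT controls 1 and 2. They were left out because they had been seen to be the highest libraries. A smaller difference was therefore bound to follow, and nothing was read from it. Without both, WT control 3, labelled female, was the only WT control left, and the other groups supplied the spread and the sex term, so these values are given without a test. The log2 fold change was then −0.74 for *Sprr1a*, −0.58 for *Gal* and −0.53 for *Ecel1*, and it was 0.67 for *Npy* and 0.13 for *Cckbr*. The remaining 5 genes lay between −0.22 and −0.016. WT control 2 alone moved 5 genes by over 1.5 times: without it *Gal* was at −0.74, *Gpr151* at −1.31, *Csf1* at −0.45, *Gadd45a* at −0.48 and *Flrt3* at −0.16. Without WT PTX 2, *Sprr1a* was at −5.22, and without WT PTX 1, *Cckbr* was at −1.16. In the mice labelled male alone, every gene was lower after PTX by more than with all libraries, from −3.44 for *Sprr1a* to −0.76 for *Flrt3*. *Npy* was then at −3.28, *Ecel1* at −3.25, *Gpr151* at −2.97, *Nts* at −1.71 and *Gadd45a* at −1.20. That fit keeps WT controls 1 and 2, drops WT control 3 and leaves 1 KO PTX library. Its values are given without a test. WT controls 1 and 2 also differed from each other in tissue carried along: the muscle marker sums were 436 and 12.9 FPKM and the spinal cord sums 7.00 and 2.07. Their parts in the result were not tested.

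With all libraries, PTX in KO mice gave no common direction. *Npy* had a higher level in KO PTX mice by 1.83 (SE 1.35), *Cckbr* by 0.63 (SE 1.00), *Ecel1* by 0.32 (SE 0.76) and *Csf1* by 0.19 (SE 0.31) on the log2 scale. The other 6 genes were at −0.61 (SE 1.16, *Sprr1a*) to −0.02 (SE 0.25, *Flrt3*), and the median of the 10 was −0.054. None was called (adjusted p = 0.999 for each), with 0.00663% of tested genes called and none of the 10 at an unadjusted p under 0.05. KO PTX 3, with the highest spinal cord markers, decided the direction of 4 genes. Without it *Npy* was at −0.22, *Cckbr* at −0.61, *Ecel1* at −0.46 and *Csf1* at −0.11, and every gene was lower after PTX. Every gene was also lower in the libraries labelled male alone, from −0.95 for *Sprr1a* to −0.02 for *Csf1*. Each of these fits leaves 1 KO PTX library. Without KO PTX 2, the other library of that group, *Sprr1a*, *Gal*, *Gpr151*, *Flrt3* and *Nts* turned to values from 0.06 (*Nts*) to 1.34 (*Sprr1a*). Without KO control 3, *Cckbr* was at −0.08, *Ecel1* at −0.10, *Gal* at 0.05, *Gpr151* at 0.03 and *Flrt3* at 0.01, each turned in direction, and *Npy* was at 0.79. *Gadd45a* was the only gene whose direction held without any 1 of the 11 libraries. Over both genotypes together all 10 genes were lower after PTX, from −1.85 (SE 0.76) for *Sprr1a* to −0.27 (SE 0.17) for *Flrt3*. None was called in that comparison (adjusted p = 0.454 to 0.926, with 0.0133% of tested genes called and 5 of 10 at an unadjusted p under 0.05, against 5.53% of tested genes in that direction). Without KO PTX 2, *Npy* turned to 0.79 and *Cckbr* to 0.13, and *Sprr1a* was at −0.91. Without WT control 2, *Flrt3* was at −0.11. The direction of 8 genes held without any 1 library.

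KO was compared with WT in the controls, which share WT controls 1 and 2 with the comparison of PTX in WT mice. All 10 genes were lower in KO controls, from −2.15 (SE 0.86) for *Sprr1a* and −1.82 (SE 0.61) for *Gpr151* to −0.36 (SE 0.36) for *Nts*. None was called (adjusted p = 0.657 to 0.785), with 0.00663% of tested genes called and 5 of 10 at an unadjusted p under 0.05, against 3.58% of tested genes in that direction. Without WT control 2, all 10 were still below 0, with *Gpr151* at −0.94, *Gal* at −0.43 and *Nts* at −0.08. Without WT controls 1 and 2, which leaves 1 WT control, the direction turned for 8 genes, as for *Npy* at 1.53 and *Cckbr* at 1.20, while *Gal* was at −0.26 and *Csf1* at −0.02. After PTX, 9 genes were higher in KO mice, led by *Npy* at 2.55 (SE 1.32), *Cckbr* at 1.60 (SE 1.00) and *Ecel1* at 1.55 (SE 0.76), and *Gadd45a* was at −0.12 (SE 0.28). None was called (adjusted p = 0.993 for each, with 0.0133% of tested genes called and none of the 10 at an unadjusted p under 0.05), and without KO PTX 3 *Npy* was at 0.33, *Cckbr* at 0.26 and *Ecel1* at 0.71. Leaving out KO PTX 3 also turned *Gal*, *Gpr151* and *Flrt3* below 0 (−0.05, −0.09 and −0.06), leaving out WT PTX 1 turned *Sprr1a* to −0.54, and leaving out WT PTX 3 turned *Gadd45a* to 0.18.

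Over both treatments, KO and WT mice differed by −0.90 (SE 0.73) for *Sprr1a* to 0.40 (SE 0.83) for *Npy*, with 4 genes higher and 6 lower. None was called (adjusted p = 1 for each), with 0.0133% of tested genes called and none of the 10 at an unadjusted p under 0.05. For 7 genes the direction turned without 1 library, as for *Sprr1a* at 0.17 without WT PTX 2 and *Npy* at −0.74 without KO PTX 3. The difference of the PTX effect between genotypes, KO minus WT, was above 0 for all 10 genes, at 4.32 (SE 1.65) for *Npy*, 2.76 (SE 0.98) for *Ecel1* and 0.51 (SE 0.34) for *Flrt3*. None was called (adjusted p = 0.724 to 0.749), with 0.00663% of tested genes called and 5 of 10 at an unadjusted p under 0.05, against 3.12% of tested genes in that direction. All 10 differences were above 0 without any 1 library, but *Npy* was at 2.14 and *Cckbr* at 1.20 without KO PTX 3, and *Flrt3* was at 0.11, *Gadd45a* at 0.18 and *Gal* at 0.57 without WT control 2. Without WT controls 1 and 2 these differences were 0.50 for *Npy* and 0.61 for *Ecel1*, and 4 genes were below 0. DESeq2 and limma called none of the 10 genes in the comparisons of this and the preceding paragraph, nor for PTX in KO mice or over both genotypes. DESeq2 called 0.829% of tested genes for PTX over both genotypes, 0.278% for KO against WT in controls, 0.0597% after PTX and 0.0795% for the difference of the PTX effect.

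**Figure D2:**
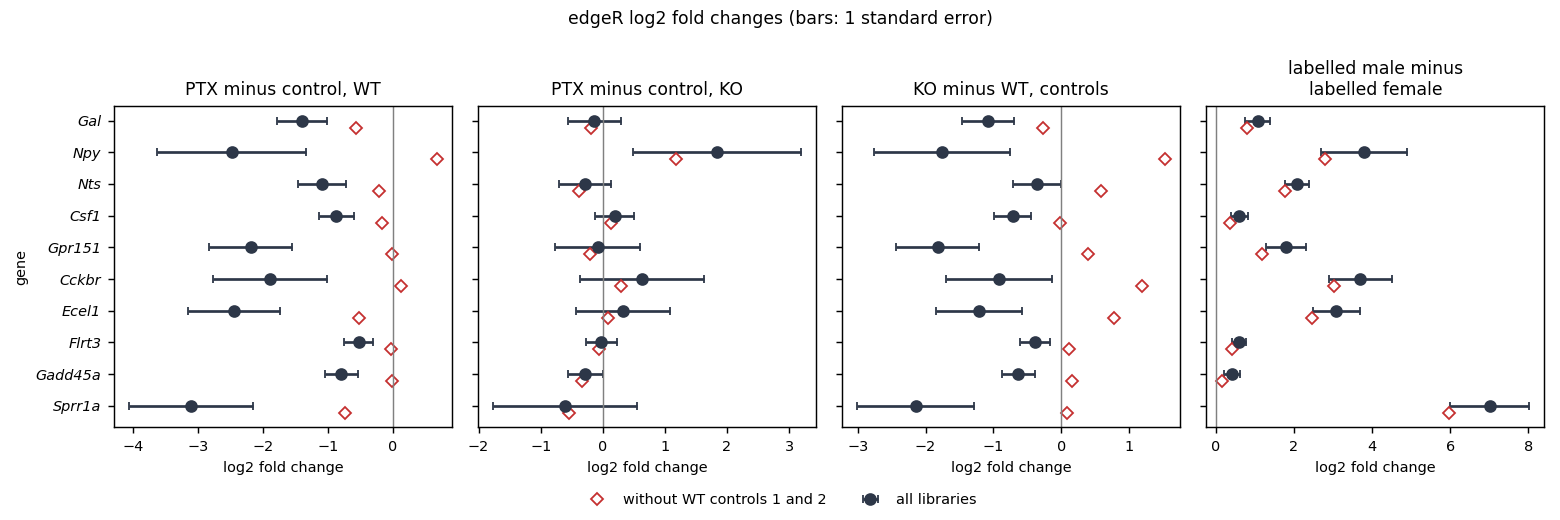
edgeR log2 fold changes of the 10 genes in 4 comparisons, with filled points for all 11 libraries, bars for 1 standard error and open diamonds for the fit without WT controls 1 and 2, which leaves 1 WT control. In WT mice the filled points lay between −3.10 and −0.53 and the diamonds between −0.74 and 0.67, whereas between labelled sexes both lay above 0.

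Mice labelled male were compared with those labelled female after the values had been seen, with the 4 groups as covariates. All 10 genes were higher in the libraries labelled male, by a median of 1.93 on the log2 scale against −0.0038 over all tested genes. *Sprr1a* differed by 7.01 (SE 1.01), *Npy* by 3.80 (SE 1.10), *Cckbr* by 3.70 (SE 0.81), *Ecel1* by 3.09 (SE 0.61) and *Nts* by 2.08 (SE 0.32). *Gpr151* differed by 1.79 (SE 0.52), *Gal* by 1.07 (SE 0.31), and *Flrt3*, *Csf1* and *Gadd45a* by 0.60, 0.60 and 0.42. None was called by edgeR (lowest adjusted p = 0.0686 for *Sprr1a* and 0.0883 for *Nts*), with 0.0398% of tested genes called and 9 of 10 at an unadjusted p under 0.05, against 4.12% of tested genes in that direction. DESeq2 called 6, against 0.471% of tested genes in that direction, namely *Sprr1a* (adjusted p = 1.25e-11), *Nts*, *Ecel1*, *Cckbr*, *Flrt3* and *Npy*.

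This difference was above 0 for all 10 genes without any 1 of the 11 libraries. Without KO control 3, the library with neither Y-linked RNA nor *Xist*, the difference was 6.82 for *Sprr1a*, 3.09 for *Cckbr*, 2.93 for *Npy*, 2.74 for *Ecel1*, 1.88 for *Gpr151* and 1.85 for *Nts*. It was 1.20 for *Gal*, 0.65 for *Csf1*, 0.63 for *Flrt3* and 0.44 for *Gadd45a*. In that fit edgeR called none of the 10 (adjusted p = 0.239 to 0.561, 9 of 10 at an unadjusted p under 0.05 against 5.35% of tested genes). DESeq2 then called 4, *Sprr1a*, *Nts*, *Ecel1* and *Cckbr*, against 0.958% of tested genes, and no longer *Flrt3* and *Npy*. EdgeR called *Sprr1a* and *Nts* without WT PTX 1 and *Nts* alone without WT PTX 3, with 8 of 15087 tested genes called in each of these fits. Without WT control 3 the difference was 6.02 for *Sprr1a*, but *Gpr151*, *Csf1* and *Gadd45a* were at 1.19, 0.35 and 0.15. Without WT controls 1 and 2, which leaves the sex difference to the other 3 groups, it was 5.98 for *Sprr1a* (adjusted p = 0.372), 3.02 for *Cckbr*, 1.76 for *Nts* and 0.14 for *Gadd45a*. The 5 mice labelled male outside WT controls had *Sprr1a* at 1.38 to 27.57 FPKM and *Nts* at 11.67 to 40.92, against 0.09 to 0.24 and 5.74 to 7.37 in the 4 labelled female. Only 1 mouse per group was labelled female, and each carried the number 3, so handling by number and sex cannot be told apart.

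The transcription factor *Atf3*, which marks injured sensory neurons, was measured at 34.78, 60.16 and 2.79 FPKM in WT controls and 5.09, 11.32 and 1.90 in WT PTX mice. It was at 8.22, 19.35 and 2.09 in KO controls and 8.89 and 2.67 in KO PTX mice, with the same 3 libraries highest in the same order as for 9 of the 10 genes. By the rule of the 3 most similar genes among all tested, by Pearson's r on log2(FPKM + 1) over 11 libraries, *Atf3* was the gene most like *Sprr1a* (r = 0.99, Spearman's rho = 0.98). *Npy* was most like *Stmn4* (r = 0.98), *Gal* most like the integrin *Itga7* (r = 0.98), and *Csf1* most like *Sema6a* (r = 0.98). *Gpr151* and *Gadd45a* were both most like *Fgf3* (r = 0.99 and 0.98, rho = 0.94 and 0.84). *Cckbr* and *Ecel1* were each most like the other, *Nts* was most like *Cckbr* (r = 0.97) and *Flrt3* most like *Gal* (r = 0.97). *Gap43*, a growth cone protein, was among the 3 most similar genes of *Gal*, *Csf1* and *Flrt3*. These are descriptions over 11 libraries that share the high WT controls 1 and 2.

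Other genes known to rise after nerve injury were given by a list of 32, of which 26 were tested. In WT mice edgeR called none for PTX against control, 25 of 26 were lower after PTX (14 at an unadjusted p under 0.05, against 6.87% of tested genes) with a median of −0.51, and *Atf3* (−2.02, SE 0.52), *Fst* (−1.54, SE 0.40), *Vgf* (−1.19, SE 0.27) and *Sox11* (−0.98, SE 0.32) differed most. Against 1.1% of tested genes, DESeq2 called 9 of the 26 lower, *Fst*, *Vgf*, *Tubb6*, *Hspb1*, *Gap43*, *Socs3*, *Anxa1*, *Cdkn1a* and *Arid5a*. In KO mice 20 of 26 were lower (2 at an unadjusted p under 0.05, against 2.57% of tested genes), with a median of −0.067, none called by edgeR and *Anxa1* called lower by DESeq2, against 0.139% of tested genes. Between labelled sexes edgeR called none, 26 of 26 were higher in the libraries labelled male (19 at an unadjusted p under 0.05, against 4.12% of tested genes) with a median of 0.41, and *Atf3* differed by 2.68 (SE 0.45). DESeq2 called 6 of these, against 0.471% of tested genes, *Atf3* among them (adjusted p = 2.18e-05). Without KO control 3, 25 of 26 were higher (13 at an unadjusted p under 0.05, against 5.35%) with a median of 0.45, and *Atf3* was at 2.65. DESeq2 then called 7 higher, against 0.958% of tested genes in that direction. Both WT controls 1 and 2 lay above the other 9 libraries for 12 of these 26 genes, against 6.77% of tested genes. The list's median lay nearer 0 than that of the 10 genes in WT mice and between labelled sexes. Over the libraries, *Stat3* and *Smad1*, transcription factors of the injury response, were at 36.01 to 45.34 and 5.87 to 8.54 FPKM.

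**Figure D3:**
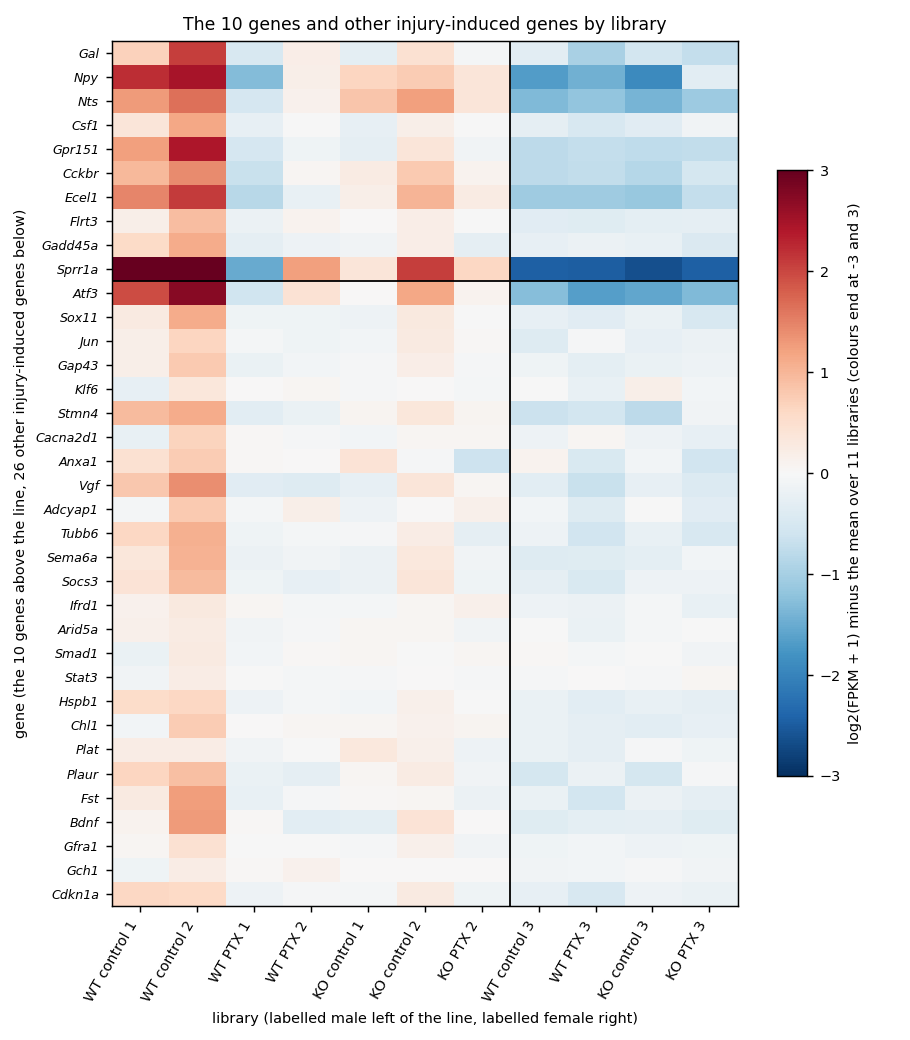
log2(FPKM + 1) minus the gene's mean over 11 libraries, for the 10 genes above the line and 26 other injury-induced genes below it, with libraries labelled male on the left and female on the right. WT controls 1 and 2 form the red columns on the left, and *Sprr1a*, *Npy* and *Atf3* are the bluest rows on the right, where *Sprr1a* was at 0.09 to 0.24 FPKM.

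Genes known to be lowered in injured sensory neurons had no common direction. EdgeR called none of the 11 tested of a list of 12 in any comparison, and in WT mice 7 were higher (3 at an unadjusted p under 0.05, against 6.59% of tested genes) and 4 lower (2, against 6.87%) after PTX, with a median of 0.10. *Htr3a* (0.47, SE 0.10) and *Grik1* (0.40, SE 0.11) were higher, both of them called by DESeq2, against 0.948% of tested genes in that direction, while *Tac1* (−0.35, SE 0.13) and *Calca* (−0.33, SE 0.11) were lower. *Calca*, the gene of the peptide CGRP, was at 749 and 988 FPKM in WT controls 1 and 2 and at 557 to 801 in the other libraries. Between labelled sexes 3 were higher and 8 lower in the libraries labelled male, with *Mrgprd* at −0.52 (SE 0.10), and DESeq2 called *Tac1* and *Calca* higher and *Mrgprd* lower, against 0.471% and 0.338% of tested genes. Without KO control 3, 4 were higher and 7 lower. DESeq2 then called *Tac1* higher (0.49), against 0.958% of tested genes in that direction. It called *Mrgprd* (−0.53) and *Grik1* (−0.39) lower, and 238 of 15087 tested genes in both directions together.

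The receptors, ligands and processing enzymes of the 10 genes' products had medians near 0. Of 26 such genes 19 were tested, edgeR called none in any comparison (1 and 2 lower at an unadjusted p under 0.05 for PTX in WT mice and between labelled sexes, against 6.87% and 4.32% of tested genes), and their median log2 fold change was 0.033 for PTX in WT mice and −0.031 between labelled sexes (−0.054 without KO control 3). *Csf1r*, the receptor of CSF1, was at 5.18, 5.01 and 4.33 FPKM in WT controls and 3.26, 3.93 and 3.07 in WT PTX mice (−0.51, SE 0.14, adjusted p = 0.238 by edgeR and 0.0342 by DESeq2). It was the only 1 of the 19 with all WT PTX libraries below all WT controls, against 7.37% of tested genes. DESeq2 called 1.1% of tested genes lower in that comparison. *Npy1r*, a receptor of neuropeptide Y, was at 13.30 FPKM in WT control 2 and at 5.33 to 6.86 in the other 10 libraries. *Cck*, the ligand of *Cckbr*, was at 0.00 to 1.82 FPKM with its highest value in KO PTX 3, and *Galr1*, a galanin receptor, was at 0.66 to 1.25. Of 16 relatives of the 10 genes, 12 were in the table, 8 were tested and edgeR called none (2 lower at an unadjusted p under 0.05 for PTX in WT mice, against 6.87% of tested genes). *Gadd45g* was at 10.40, 14.33 and 4.98 FPKM in WT controls and 4.97, 4.22 and 3.67 in WT PTX mice (−1.14, SE 0.25, adjusted p = 0.203 by edgeR and 0.00168 by DESeq2, against 1.1% of tested genes called lower). *Gadd45b* was at 2.84 to 4.32 in all libraries. *Cckar* had its highest values in WT controls 1 and 2, at 11.56 and 17.78 FPKM, as *Cckbr* did.

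Other cell types were given by their markers. Summed over 5 markers, SGCs had 1409, 1238 and 972 FPKM in WT controls and 1015 to 1226 elsewhere. Schwann cells had 1228 to 2166 over 6 markers, blood cells had 71.5 to 294 over 5, and edgeR called none of the markers of these types in any comparison with all 11 libraries. DESeq2 called *Fabp7*, an SGC marker, lower after PTX in WT mice (−0.43, adjusted p = 0.0109) and higher in the libraries labelled male (0.61, adjusted p = 1.41e-09). It called *Tubb3*, a neuronal tubulin, in the same directions (−0.29 and 0.26). Of all tested genes, it called 1.1% lower after PTX in WT mice and 0.471% higher in the libraries labelled male. Without KO control 3 these differences between labelled sexes were 0.71 for *Fabp7*, then called by edgeR as well (adjusted p = 0.0123), and 0.29 for *Tubb3*. By edgeR with all 11 libraries, 2 of the 5 SGC markers were higher and 3 lower after PTX in WT mice. Among them *Glul* was at 0.095 and *Apoe* at −0.11. Between labelled sexes 3 were higher and 2 lower. Of the 9 sensory neuron markers, 5 were higher and 4 lower after PTX in WT mice. In WT mice DESeq2 also called 2 macrophage markers lower after PTX, *Adgre1* (−0.70) and *Mrc1* (−0.57). It called 1 spinal cord marker higher, *Aqp4* (0.64), against 0.948% of tested genes in that direction. By edgeR the 2 other tested spinal cord markers were lower, *Slc1a2* at −0.49 (SE 0.89) and *Mobp* at −0.92 (SE 1.36). DESeq2 called *Fabp7* lower in KO than in WT mice over both treatments (−0.36), against 0.133% of tested genes in that direction. By edgeR 4 of the 5 SGC markers were higher in KO mice in that comparison. The 2 libraries highest for the 10 genes, WT controls 1 and 2, had the highest sums of sensory neuron markers, 4588 and 4577 FPKM, and the 4 libraries labelled female had 3689 to 3960. Sums in the 5 other libraries labelled male were 3942 to 4148. Single markers did not all follow the sums. *Tubb3* was at 1436.09 and 1555.61 FPKM in WT controls 1 and 2 and at 975.37 to 1143.92 in the libraries labelled female. *Snap25* went the other way, at 130.78 and 159.81 against 192.06 to 201.61. The part of these markers in the levels of the 10 genes was not tested.

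**Figure D4:**
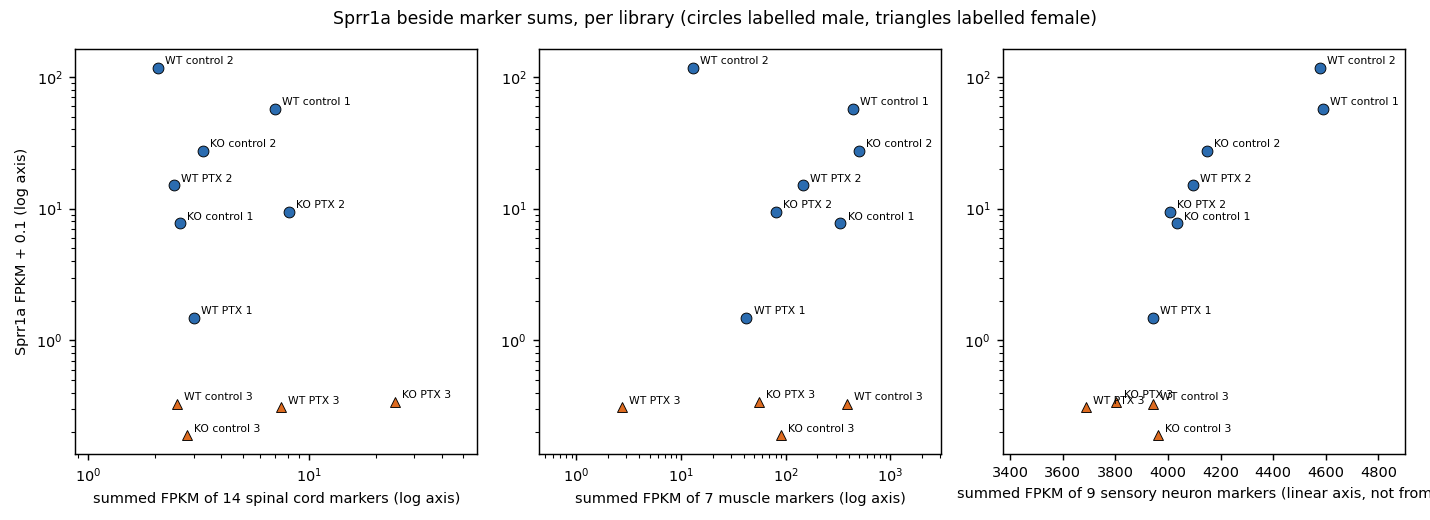
*Sprr1a* FPKM + 0.1 (log axis) against the summed FPKM of spinal cord, muscle and sensory neuron markers, 1 point per library. Libraries labelled female, at the bottom, had spinal cord sums of 2.51 to 24.4 and muscle sums of 2.73 to 383. Those labelled male had 2.07 to 8.09 and 12.9 to 497, and all sensory neuron sums lay between 3689 and 4588.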

How the data were processed

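DRG RNA of 11 mice was sequenced from strand-specific poly(A) libraries. The submitters' processing notes name cutadapt, FastQC, HISAT2 and StringTie and the build mm10, without versions. The authors deposited FPKM, scaled for length and library size, and estimated counts per gene without normalization. The 10 genes, the gene lists and the comparison of labelled sexes were chosen with earlier results of these data known.

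Counts were rounded and tested with edgeR 4.0.16 in R 4.3.3 (TMM, quasi-likelihood, labelled sex as covariate, all 11 libraries) over the 15087 genes whose mean FPKM reached 0.5, with Benjamini-Hochberg adjustment over these genes and a threshold of 0.05. Standard errors came from dividing each fold change by √F. Fold changes are log2. No column was left out for lack of a sample. EdgeR's p-values set each difference against the spread between libraries, estimated from all 11 together. All 10 genes were named, with *Gpr37l1*, *Atf3*, up to 4 listed genes per list and comparison with the largest differences, and the 3 genes most like each; sex-linked genes, *Macrod2*, *E230016M11Rik*, *Stat3*, *Smad1*, *Gadd45b*, *Sprr1b* and genes that DESeq2 called were named after their values were seen. Promoters came from RefSeq GRCm38.p6, gene coordinates from the deposited data, and exon counts and overlapping genes from GENCODE M21. Alternatives were DESeq2 1.42.0, limma 3.58.1 on log2(FPKM + 1) and log2(FPKM + 0.1), other scalings, filters and covariates, and each library left out. Python 3.11.15 was used for summaries.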

Additional observations from a re-analysis of the deposited data

Results flagged for a closer look

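Within a genotype, the mice labelled male and the mouse labelled female differed in opposite directions between PTX and control for several of the 10 genes, with every male-labelled PTX library on one side of every male-labelled control. Values are log2 ratios of mean FPKM + 1, PTX over control. In WT mice they were −2.74 in males and 0.23 in the female for *Npy*, −2.26 and 0.08 for *Gpr151*, and −1.47 and 0.05 for *Cckbr*. They were −1.08 and 0.07 for *Gadd45a* and −1.62 and 0.14 for *Nts*. In KO mice they were −0.36 in males and 1.6 in the female for *Npy*, −0.44 and 0.32 for *Cckbr*, −0.11 and 0.03 for *Flrt3*, and −0.69 and 0.31 for *Nts*. The difference between the labelled sexes in the effect of PTX was not tested, since each group had 1 library labelled female. The female WT values rest on WT control 3 and WT PTX 3, with 8 and 14 counts of *Npy* and 15 and 19 of *Cckbr*. For *Gpr151* these libraries had 81 and 77 counts, the reverse of the order in FPKM. The female KO values rest on KO control 3, which had neither Y-linked RNA nor *Xist*, and on KO PTX 3, which had the highest spinal cord markers.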

How the results depend on the processing

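No count of called genes among the 10 moved in 6 of the 8 comparisons under any alternative. For PTX in WT mice DESeq2 called 1 of the 10 genes (309 genes in all, against 1 by edgeR). Between labelled sexes, 2 of 10 were called with no filter on low genes (14 genes in all), 6 by DESeq2 (122 in all, against 6 by edgeR) and 4 by DESeq2 without KO control 3 (238 in all). With 1 library left out, edgeR called 0 to 2 of the 10. It called 2 without WT PTX 1 and 1 without WT PTX 3 (8 genes in all in each). In the other comparisons DESeq2 called none of the 10. It called 28 genes in all for PTX in KO mice and 125 over both genotypes, against 1 and 2 by edgeR. For KO against WT it called 42 genes in controls, 9 after PTX and 27 over both treatments, against 1, 2 and 2 by edgeR, and 12 against 1 for the difference of the PTX effect. Fold changes of single genes, none of them called, changed sign in 91 alternatives, of which 30 were for PTX in KO mice, 30 for KO against WT over both treatments and 2 for PTX in WT mice. The fits without WT controls 1 and 2, without the whole WT control group and in males only, and that of DESeq2 without KO control 3, were chosen after the data were seen.

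The replicate block in place of sex called 0 of 10 genes for PTX in WT mice, with *Sprr1a* at −3.60. The labels give number 3 to females and tie no mice together, and only 5 of 15 same-numbered pairs of libraries had deviations from their group means correlated above 0.1 (−0.23 to 0.23), so the numbers were not taken to pair the mice. Of 11 libraries, 7 correlated best with a library of their own number. Low counts limit *Sprr1a*, *Npy* and *Cckbr* in the libraries labelled female, which held 0 to 71 counts of these genes. With 2 or 3 mice per group, 1 of them labelled female, a difference of the size of that of *Flrt3* or *Csf1* between labelled sexes was not called by edgeR.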
